A study of Mus musculus with 6 samples.

Results

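The cells described here were the vascular smooth muscle cells (VSMCs) caught when the surface of the adult mouse cortex and the tissue of the inner skull were dissociated. They were chosen by 7 genes of the contractile or muscle type, Tagln, Cnn1, Tpm2, Myl9, Mustn1, Pln and Des. A barcode was taken as a VSMC when it held at least 500 genes and at most 10% mitochondrial transcripts, carried at least 1 transcript of at least 5 of the 7 genes, and carried none of Ptprc (leukocytes), Pecam1 (endothelium) and Kcnj8 (pericytes). Under this rule 660 of the 5460 barcodes kept in the 4 libraries used were VSMCs. The whole series held 17560 barcodes in 6 libraries, of which 8804 passed the gene and mitochondrial filters.

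Single cells were sequenced on the 10x Genomics Chromium system, which counts each captured mRNA by its unique molecular identifier (UMI) and gives every cell a barcode. Cortical surface-associated (CSA) libraries were made from the top of the cortex with its leptomeninges, laid on a coverslip so that the enzymes reached the surface. Bone-associated (BA) libraries were made from the connective tissue on the removed skull, which holds the dura. All mice were adult C57BL6 animals of 8 to 16 weeks, with males and females in equal number and no treatment or allele in either group, and viable cells were sorted before capture. The mice were not perfused. Each CSA library pooled 6 to 10 mice and each BA library 8 mice, so that a library is the replicate, n is 2 libraries for each preparation, and p-values measure the spread between pools and not between animals. The study's methods name collagenase D and dispase II for the dissociation, whereas the sample labels give papain as the enzyme and the ventricular-subventricular zone as the tissue. Dissection and vessel bed changed together between CSA and BA and cannot be told apart, and whether a CSA cell came from a vessel on the surface or from a vessel entering the cortex cannot be read from the transcripts.

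VSMCs wrap arteries, arterioles and, more loosely, veins, and set the vessel diameter. Calcium entering through voltage-gated channels or released from stores activates myosin light chain kinase, and myosin then pulls on smooth muscle actin, whereas cyclic nucleotides, potassium channels and myosin phosphatase relax the cell. The genes of this machinery are driven by serum response factor with its coactivator myocardin at a short DNA element, the CArG box. Pericytes, the mural cells of capillaries, share the lineage and many genes but make little of this machinery.

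The 4 libraries used each gave a group of VSMCs of similar depth. CSA 1 held 107 VSMCs of 743 kept barcodes, or 14.4% (exact binomial 95% interval 12 to 17.1). CSA 2 held 180 of 1252, or 14.4% (12.5 to 16.4). BA 1 held 148 of 963, or 15.4% (13.1 to 17.8), and BA 2 225 of 2502, or 8.99% (7.90 to 10.2). The intervals cover counting error only. BA 2 lay below the other 3 libraries, whose intervals overlapped, and the shares were not tested between preparations. Median depth was 12757, 12262, 12605 and 10083 UMIs per VSMC in CSA 1, CSA 2, BA 1 and BA 2, and the VSMCs of these libraries summed to 1397017, 2231932, 1915693 and 2339853 UMIs. CSA libraries 3 and 4 stood apart. They held 2 VSMCs of 1103 kept barcodes (0.181%) and 9 of 2241 (0.402%), while hemoglobin genes took 84.6% and 71.9% of their UMIs against 0.0908% to 0.52% in the other 4 libraries, and they entered no comparison. The median mitochondrial share of the VSMCs, 7.69% to 8.57%, was close to the limit of 10%, and with a limit of 20% the share in CSA 2 rose to 22.8% and that in BA 2 to 14.1%. Over all pairs of the 6 libraries 35 barcodes were shared, none of them by VSMCs.

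The label was checked on genes other than the markers that chose the cells. Levels are given throughout as counts per 1000000 (CPM), the UMIs of a gene scaled to 1000000 UMIs summed over the VSMCs of a library, in the order CSA 1, CSA 2, BA 1 and BA 2. Acta2, smooth muscle actin, stood at 19200, 21400, 14700 and 13500. Myh11, the smooth muscle myosin heavy chain, stood at 5830, 3430, 5930 and 2920. Lymphocytes of the same libraries, which should lack both genes and so show the level of free RNA, held 18.6 to 56.9 of Acta2 and 0 to 21 of Myh11. The cells therefore carried the transcripts of smooth muscle in all 4 libraries. Markers of other cells were low but not absent. The 15 immune markers summed to 41.2 to 62.8 CPM and the 14 endothelial markers to 253 to 286, of which Esam was the most abundant. Ptprc and Pecam1, which are in these lists, were at 0 by the rule, so the sums rest on the other genes. The 17 pericyte markers summed to 4560 to 5560 through Rgs5, with Kcnj8 (by the rule), Atp13a5 and Ggt1 at 0 in all 4 libraries. The 21 skeletal and cardiac muscle markers summed to 41.0 to 61.1, with 12 of them at 0 in every library, among them Acta1, Actc1 and Myh6.

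Most VSMCs held a transcript of some fibroblast gene, and a few barcodes held all of those looked for. Of the 660 VSMCs, 5 carried all 8 mesenchymal markers (Lum, Dcn, Fbln1, Pcolce, Islr, Serpinf1, Col3a1 and Col1a2), and no other carried more than 6. They were 1 in CSA 1, 1 in CSA 2, none in BA 1 and 3 in BA 2. The barcode in CSA 1 held 24489 UMIs, the most of any VSMC there, with 97 UMIs of Dcn and 8 of Acta2. The barcode in CSA 2 held 20162, with 52 of Dcn and 160 of Acta2. Of the 3 in BA 2, 1 held 211 UMIs of Dcn and none of Acta2 or Myh11. No doublet caller was run, and results that rest on these barcodes are given with and without them, an alternative chosen after seeing the data. They are called the mixed barcodes from here on. VSMCs with none of the 8 mesenchymal markers numbered 4, 3, 12 and 17 in CSA 1, CSA 2, BA 1 and BA 2. Those with exactly 4, the least number that chose mesenchymal cells, numbered 15, 32, 15 and 26, and they were kept. The choice of 5 markers set the border of the group. In the CSA libraries 10 barcodes with 4 of the 7 markers held 409 Acta2 and 12836 Rgs5 CPM, 9 with 5 markers held 2828 and 10407, and 216 with all 7 held 22458 and 932. In the BA libraries 26 barcodes with 4 markers held 632 Acta2, 586 Rgs5 and 5462 Dcn, 42 with 5 markers held 6711 Acta2 and 10375 Rgs5, and 165 with all 7 held 16397 and 478.

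Of the genes of the contractile apparatus 2 of 50 were called between the preparations, a share near that of all genes. The question was whether VSMCs of the cortical surface and of the skull differ in the genes that define their function, and UMIs summed over the VSMCs of each library were compared by edgeR's quasi-likelihood test with Benjamini-Hochberg adjustment. A gene was called at an adjusted p under 0.05 and a log2 difference of at least 1.3. Of 8305 genes tested 468 were called (5.64%), 137 of them higher in CSA (1.65%) and 331 higher in BA (3.99%), and the median log2 difference, CSA over BA, of all genes tested was 0.01. Of 51 contractile genes 50 were tested and 2 were called, with a median of 0.07, in cells that were chosen by genes of the same apparatus. The log2 difference of Acta2 was 0.45 ± 0.30 (SE, adjusted p = 0.494) and that of Myh11 -0.02 ± 0.33. SE throughout is the size of the log2 difference divided by the square root of the F statistic of the test. Mylk, the myosin light chain kinase, stood at 2800, 1950, 2490 and 1490 (0.17 ± 0.28). Smtn, smoothelin, stood at 352, 290, 366 and 247 (-0.01 ± 0.24). Lmod1, an actin nucleator of muscle, stood at 926, 735, 1010 and 736 (-0.15 ± 0.25). In Myh11, Mylk, Smtn and Lmod1 the levels of the preparations overlapped, whereas both CSA libraries lay above both BA libraries in Acta2. Myocd, the myocardin gene, overlapped too, at 115, 72.1, 100 and 62.4.

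The 2 contractile genes called were weakly held. Actg2, the enteric smooth muscle actin, stood at 104 and 85.6 in CSA and 29.8 and 31.6 in BA, a log2 difference of 1.53 ± 0.25. Without the rule on Kcnj8 it was -0.63, the opposite direction and not called. Pgm5, a protein of cell-matrix junctions, stood at 40.1, 21.5, 92.4 and 50 (-1.32 ± 0.32), and it was not called without CSA 2 (-0.98), without BA 1 (-0.88) or with cells thinned to 3000 UMIs (-1.08). Of the marker genes of the rule, which were fitted with the other genes but left out of the counts since they chose the cells, Des (desmin) stood at 1170, 1260, 586 and 587, Mustn1 at 1170, 1320, 2440 and 2080, and Cnn1 (calponin 1) at 483, 366, 363 and 191. Tagln (15100, 13700, 15300 and 12200) and Pln, phospholamban (1200, 1310, 1060 and 1100), were closer to equal.

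**Figure D1:**
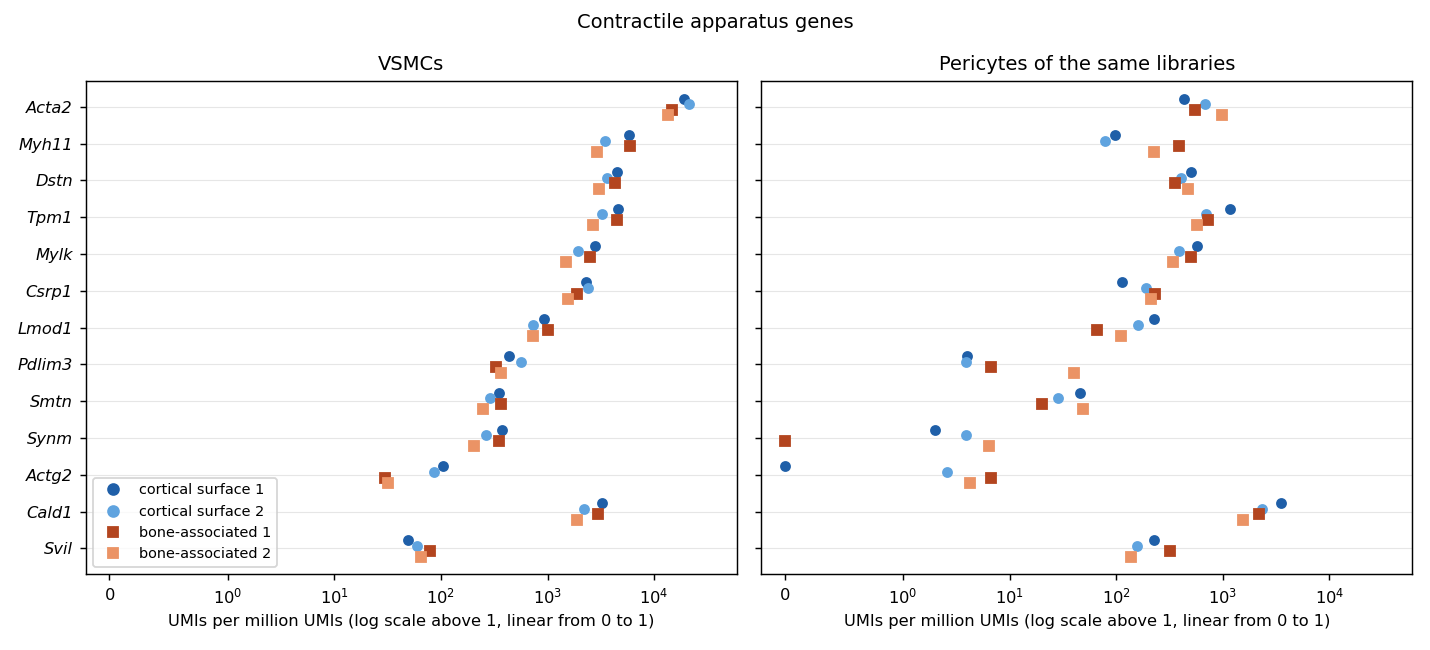
Levels of contractile apparatus genes (CPM, log axis, linear from 0 to 1) in VSMCs and pericytes, each point a library. In VSMCs the CSA and BA points of Myh11, Mylk and Lmod1 overlap, and the VSMC points lie above the pericyte points for Acta2 and Myh11 but not for Cald1, which stood at 3210, 2210, 2980 and 1880 in VSMCs and 3500, 2340, 2180 and 1540 in pericytes.

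The promoters of some of these genes hold the letters of the CArG box. Promoter sequences were taken from RefSeq (GRCm38.p6), each running from 250 bases before the start of a gene to 50 bases after it, and the box was searched on both strands as a run of 10 letters. It was found in the windows of 488 of 27025 genes (1.81%). Of the 51 contractile genes 41 had a window and 5 of them a box (12.2%): Cnn2, Filip1l, Ldb3, Myl6 and Vcl. Of the marker genes of the rule 6 had a window and Myl9 a box. The windows of Myl9 (chr2:156775214-156775513, plus strand), Myl6 (chr10:128492960-128493259, minus strand) and Ldb3 (chr14:34588632-34588931, minus strand) are shown, since these genes carry a box and were at high or even level in VSMCs of both preparations. The box is in capitals and lies 161, 50 and 35 bases before the start.
Myl9: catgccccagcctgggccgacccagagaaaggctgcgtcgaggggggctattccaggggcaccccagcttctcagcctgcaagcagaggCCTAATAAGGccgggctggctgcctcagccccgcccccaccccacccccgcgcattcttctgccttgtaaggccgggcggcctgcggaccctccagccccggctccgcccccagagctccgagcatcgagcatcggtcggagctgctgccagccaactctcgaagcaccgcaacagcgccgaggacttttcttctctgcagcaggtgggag
Myl6: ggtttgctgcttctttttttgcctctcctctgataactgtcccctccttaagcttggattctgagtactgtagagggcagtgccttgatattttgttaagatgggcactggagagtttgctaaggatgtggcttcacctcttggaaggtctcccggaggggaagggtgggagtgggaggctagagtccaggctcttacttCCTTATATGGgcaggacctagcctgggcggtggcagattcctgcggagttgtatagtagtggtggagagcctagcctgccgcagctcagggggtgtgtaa
Ldb3: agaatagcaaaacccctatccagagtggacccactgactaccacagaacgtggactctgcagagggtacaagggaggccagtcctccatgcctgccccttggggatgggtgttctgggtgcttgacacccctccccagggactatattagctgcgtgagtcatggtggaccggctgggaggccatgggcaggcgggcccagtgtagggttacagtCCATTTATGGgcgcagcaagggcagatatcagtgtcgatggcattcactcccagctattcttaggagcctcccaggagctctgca
Myl9, a regulatory myosin light chain, stood at 7090, 6500, 6350 and 4590. Myl6, an essential myosin light chain that most cells make, stood at 8610, 9050, 8610 and 7480, and Ldb3, a protein of the muscle Z-line, at 73.0, 45.3, 95.5 and 56.4. A match of letters is a description and not a bound site, and a window without it says only that the letters are not in those 300 bases.

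The libraries of each preparation were alike. The correlation of log levels over 8325 genes was 0.961 between the CSA libraries, 0.963 between the BA libraries and 0.875 to 0.907 across preparations. In the other cell types of the same libraries, 100 of the 137 genes higher in CSA VSMCs were also higher on average in CSA pericytes, 92 in CSA mesenchymal cells and 69 in CSA lymphocytes. Of the 331 genes higher in BA VSMCs, 284 were also higher in BA pericytes, 275 in BA mesenchymal cells and 209 in BA lymphocytes. No share over all genes was computed for these counts or for the lymphocyte counts that follow. They are descriptions only, and whether they exceed what all genes would give was not tested. In lymphocytes 20 of the 137 and 63 of the 331 genes reached or passed the level of the VSMCs where they were high. The part of free RNA in these was not tested.

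Of the genes with the largest differences towards CSA, 5 that are named here were spread over many VSMCs, with no cell holding more than 7.89% of a gene's CSA UMIs in its library. Slc19a1, the reduced folate carrier and also one of the 17 pericyte markers, stood at 130, 116, 3.65 and 6.41 (4.48 ± 0.32, adjusted p = 8.22e-08). BC051019, a little studied gene, stood at 95.9, 94.1, 2.61 and 0.427 (5.93 ± 0.43). Slc19a1 was found in 78 of 107 and 125 of 180 CSA cells and in 7 of 148 and 14 of 225 BA cells. In both genes CSA lay more than an order of magnitude above BA, and BC051019 had 5 and 1 UMIs in BA 1 and BA 2. Rgs17, which shortens G protein signals, stood at 78.0, 50.6, 4.18 and 1.28 (4.49 ± 0.41). Foxf2, a forkhead factor of brain mural cells, stood at 27.2, 22.0, 0.522 and 1.28 (4.53 ± 0.53). Itga4, an integrin chain that leukocytes also make, stood at 94.5, 39.4, 2.09 and 2.14, with UMIs in 69 of 107 and 63 of 180 CSA VSMCs, and lymphocytes held 116 to 182 of it. Of the 17 pericyte markers 12 were tested, with Slc19a1 and Vtn higher in CSA and Abcc9 and Cox4i2 higher in BA. Over all genes the shares were 1.65% and 3.99%.

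A further 4 were Ptgds, Igfbp2, Apod and C1qa. Ptgds, prostaglandin D synthase, stood at 85.2, 423, 0.522 and 0.855, a ratio of 415 (95% counting interval 142 to 2020). In CSA 2, 738 of its 943 UMIs were in the mixed barcode described above, without which the level was 92.7. Lymphocytes of CSA 1 and CSA 2 held 207 and 144 CPM of it and mesenchymal cells 53400 and 74000. Igfbp2, which binds insulin-like growth factors, stood at 209, 145, 0 and 1.28, and the mixed barcodes held 61.3% and 57.9% of its UMIs in CSA 1 and CSA 2. Apod, apolipoprotein D, stood at 173, 88.7, 2.09 and 3.85, and they held 93.8% and 85.4%. With the 5 mixed barcodes left out, the fitted log2 difference was 6.61 for Ptgds, 6.96 for Igfbp2 and 2.56 for Apod, against 8.35, 7.75 and 5.28 with them. Apod was not called without the rule on Kcnj8 (1.85). C1qa, a complement gene of macrophages, stood at 16.5, 15.2, 0 and 0.855, below lymphocytes, which held 488, 307, 89.6 and 26.0.

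**Figure D2:**
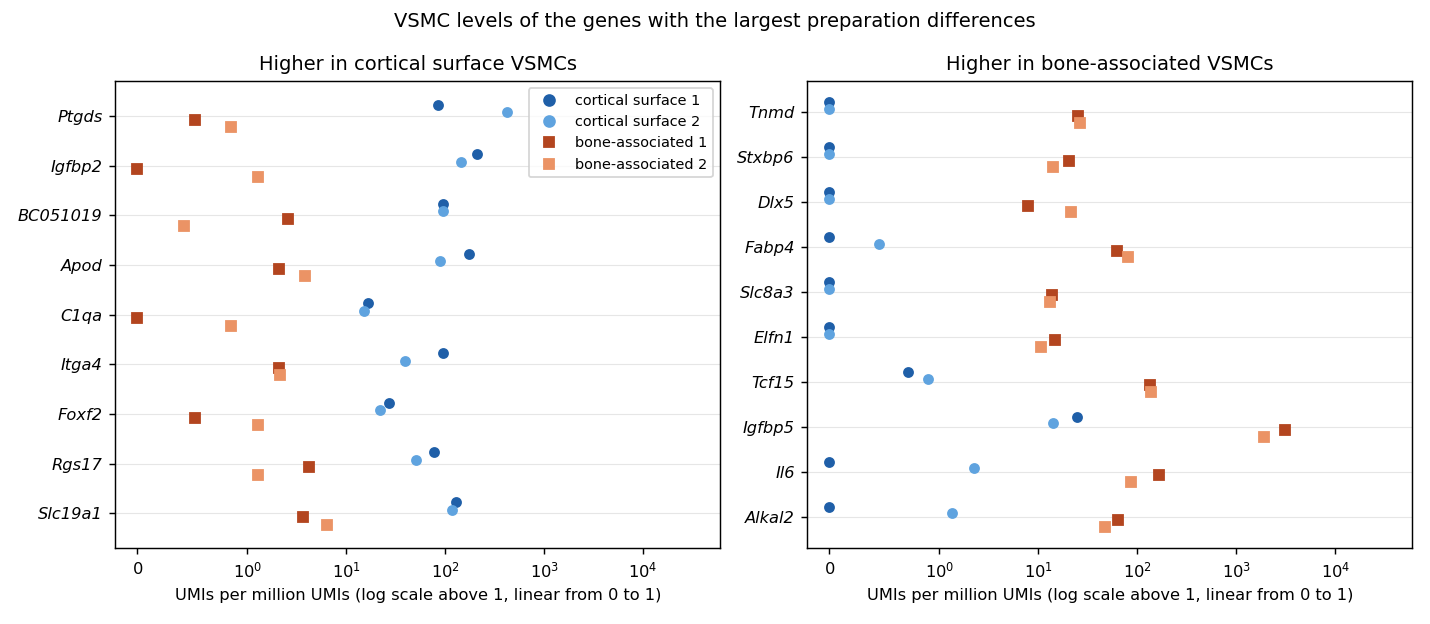
VSMC levels (CPM, log axis, linear from 0 to 1) of genes with the largest differences in each direction, each point a library. The genes were chosen among those whose CSA and BA points do not overlap, and 5 of the 10 genes higher in BA (Tnmd, Stxbp6, Dlx5, Slc8a3 and Elfn1) have no UMI in CSA.

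Of the 10 genes with the largest differences towards BA, Tcf15 and Igfbp5 were found in the most VSMCs. Tcf15, a basic helix-loop-helix factor of the somites and of some endothelium (chr2:152143561-152149097), stood at 0.716, 0.896, 134 and 138, a ratio of 164 (55.9 to 799). It was found in 95 of 148 and 126 of 225 BA VSMCs and in 1 of 107 and 2 of 180 CSA VSMCs, and in BA mesenchymal cells it was at 0. Igfbp5, another binding protein of insulin-like growth factors, stood at 24.3, 13.9, 3110 and 1920, a log2 difference of -7.16 ± 0.38 (adjusted p = 5.03e-09), with UMIs in 145 of 148 and 211 of 225 BA VSMCs. The BA libraries were more than an order of magnitude above the CSA libraries for both genes. BA pericytes held 2980 and 1200 of Igfbp5 and BA mesenchymal cells 4730 and 7120.

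The other 8 were found in fewer cells. Fabp4, a fatty acid-binding protein, stood at 0, 0.448, 61.6 and 79.5 with UMIs in 23 of 148 and 33 of 225 BA VSMCs, a ratio of 259 (46.2 to 10300), and the 5% of cells with the most held 70.3% and 73.7% of its UMIs there. Il6, the cytokine interleukin 6, stood at 0, 2.24, 166 and 86.8 (-6.52 ± 0.52), in 36 and 40 BA cells. Alkal2, a ligand of the receptor ALK, stood at 0, 1.34, 63.7 and 47.0, in 31 and 22. Within BA these 3 genes were thus high in a minority of VSMCs. Tnmd, tenomodulin, stood at 25.1 and 26.1 in BA, and the absence of UMIs in CSA makes it at least 31.0-fold higher (a floor of 3 UMIs over the group). On the same terms Stxbp6 was at least 20.5-fold, Dlx5 at least 18.5-fold, Slc8a3, a sodium-calcium exchanger, at least 16.2-fold and Elfn1 at least 15.1-fold higher in BA. The UMIs of Dlx5 were uneven, 15 in BA 1 and 50 in BA 2, and its limit pools them.

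Transcription factors known for patterning embryonic regions differed in both directions. Of 53 such factors 24 were tested and 16 were called, 8 higher in CSA and 8 higher in BA, where 1.65% and 3.99% of all genes tested were called. The list was chosen with earlier results of these data known. A gene low in one preparation could also pass the detection filter through the other, where it was high. These counts are therefore descriptions, and an excess was not tested. Those higher in CSA included Foxf2, Foxd1, Zic4, Tfap2a, Zic2, Tbx15 and Tfap2b. Foxd1, a forkhead factor of forebrain mesenchyme and kidney stroma, stood at 99.5, 73.9, 8.35 and 17.5 (2.61 ± 0.32), and with at least 4 markers in the rule it was not called (0.85). Zic4, a zinc finger gene of the meninges and cerebellum, stood at 60.8, 68.1, 10.4 and 12 (2.44 ± 0.29). Zic2 was not called without CSA 1 (1.26), Tfap2a without BA 2 (1.21), and Tfap2b without CSA 1 (1.28) or BA 2 (0.81), while Tbx15 was not called with a limit of 20% mitochondrial UMIs (1.21). Those higher in BA included Dlx5, Foxl2, Meox2, Msx1, Runx1, Foxp2 and Foxf1. Msx1, a homeobox gene of the skull mesenchyme, stood at 42.9, 33.6, 160 and 188 (-2.29 ± 0.25). Meox2, a homeobox gene of muscle and vessels, stood at 6.44, 3.14, 62.6 and 57.3 (-3.80 ± 0.35). Runx1, the factor of blood and bone, stood at 22.9, 24.2, 95.5 and 87.2 (-2.02 ± 0.26), although lymphocytes held 49.3 to 155 of Runx1. Foxp2 was not called without CSA 2 (-1.25), and Foxf1 was not called without CSA 1 (-1.17), CSA 2 (-1.72) or BA 2 (-1.3).

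Of 37 factors known from smooth muscle 32 were tested and 7 were called, 1 higher in CSA and 6 in BA (1.65% and 3.99% over all genes), with a median of -0.19. Tbx18, a factor of mural cells, stood at 127, 99.9, 34.5 and 17.5 (2.06 ± 0.29). Ebf2, a factor of fat and bone lineages, stood at 2.86, 2.69, 167 and 110 (-5.68 ± 0.37, adjusted p = 3.58e-08). It was below 0.6 in lymphocytes of all 4 libraries. Nr4a3, an immediate-early nuclear receptor, stood at 15.0, 15.7, 358 and 181 (-4.18 ± 0.34), whereas lymphocytes held 34.1, 87.3, 496 and 236. Meis2, Id4, Hey1 and Smad7 were also higher in BA. Hey1, a target of Notch, stood at 6.44, 8.06, 20.4 and 29.9. Of the 25 Notch genes 17 were tested and 2 were called, Hey1 and the protease Adam17, which was not called without CSA 2 (-1.22) or BA 1 (-1.06), while the receptor of mural cells, Notch3, stood at 679, 516, 806 and 662 (-0.38 ± 0.24) and was not called.

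**Figure D3:**
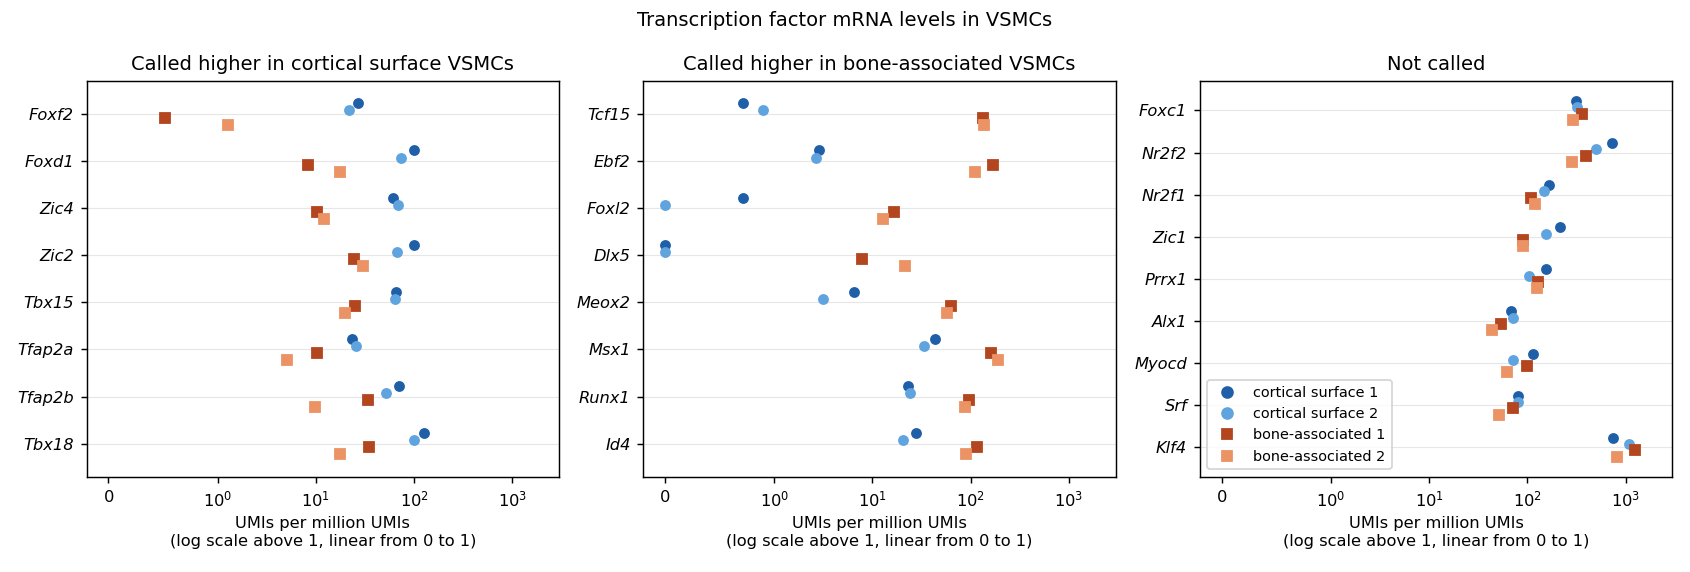
VSMC levels of called transcription factors and of 9 that were not called (CPM, log axis, linear from 0 to 1), each point a library. Foxf2 stands at 27.2 and 22.0 in CSA and Tcf15 at 134 and 138 in BA, while Msx1 and Runx1 were detected in every library of both preparations.

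Among channels, receptors and signalling genes most of the members tested were not called. Of 63 genes of ion channels and calcium handling 50 were tested, 3 were higher in CSA (P2rx1, Srl and Atp2a3) and 4 in BA (Abcc9, Kcnj2 and Casq2 among them), with a median of -0.09. Over all genes the shares were 1.65% and 3.99%. P2rx1, the ATP-gated channel of sympathetic contraction, stood at 112, 83.8, 15.7 and 8.55 (2.94 ± 0.30, adjusted p = 4.16e-06). It was at 0 in lymphocytes, and its levels in the 2 preparations were well apart. Casq2, which binds calcium in the stores, stood at 15.0, 17.5, 106 and 74.4 (-2.52 ± 0.29). Abcc9, the sulfonylurea receptor that pairs with the channel Kcnj8 excluded by the rule, stood at 0.716, 0.448, 44.4 and 32.1, a ratio of 68.2 (18.6 to 568), and Kcnj2, the inward rectifier, at 0.716, 0.448, 21.4 and 14.5, a ratio of 32.0 (8.55 to 269). The calcium channel Cacna1c, at 83.7, 52.9, 64.2 and 41.9, and the potassium channel Kcnma1, at 87.3, 57.3, 50.6 and 24.8, were not called.

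Of 72 receptors for vasoactive signals 20 were tested, 4 were higher in CSA (Ackr3, Htr1b, Gper1 and F2r) and 3 in BA (Ptger4, Avpr1a and Ptger3), where all genes gave 1.65% and 3.99%. Ackr3, the scavenger receptor of Cxcl12, stood at 132, 161, 12.5 and 10.7 (3.59 ± 0.29, adjusted p = 2.45e-07). Htr1b, the serotonin receptor through which triptans contract cranial arteries, stood at 55.1, 26.0, 7.31 and 1.71 (3.09 ± 0.47). Gper1, a receptor for oestrogen, stood at 146, 268, 30.8 and 47.4 (2.33 ± 0.33). CSA was above BA in every library for these 3. F2r, a thrombin receptor, lost its call without the rule on Kcnj8 (0.68). Avpr1a, the vasopressin receptor, stood at 0, 2.24, 20.4 and 35.5 (-4.38 ± 0.60), and Ptger3, a receptor for prostaglandin E2, at 0.716, 1.79, 23.5 and 22.7 (-4.08 ± 0.51). Ednra, the endothelin receptor of smooth muscle, stood at 167, 134, 253 and 184 and was not called (-0.62 ± 0.24). Of 49 genes of cyclic nucleotide and G protein signalling 38 were tested, with Rgs17 higher in CSA and Adcy3, Rgs16, Rgs2 and Pde4b higher in BA, of which Rgs16 was not called by DESeq2 (-2.48). Pde4b, which degrades cyclic AMP, stood at 54.4, 95.9, 334 and 253 (-2.0 ± 0.29).

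Matrix genes were called in both directions. Of 60 elastic fibre and matrix glycoprotein genes 33 were tested, 4 were higher in CSA and 9 in BA, with a median of -0.49 against 0.01 over all genes. Of all genes tested 1.65% were higher in CSA and 3.99% in BA. Thbs1, thrombospondin 1, stood at 65.1, 148, 953 and 627 (-2.92 ± 0.35). Igfbp4 stood at 328, 293, 1520 and 1420 (-2.33 ± 0.25). Fbn1, fibrillin 1, stood at 4.29, 1.34, 29.2 and 39.3 (-3.82 ± 0.45). The 3 genes were also higher in BA mesenchymal cells, at 412 and 353, 1670 and 1930, and 168 and 174. Tnxb, Thbs2, Ogn, Loxl1 and Lox made up the rest with Igfbp5, of which Lox was not called without CSA 1 (-1.23), BA 1 (-0.84), the mixed barcodes (-1.28) or barcodes with Pdgfra or Lum (-1.27), Loxl1 without BA 2 (-0.96), the mixed barcodes (-1.03) or barcodes with Pdgfra or Lum (-1.01), Ogn without CSA 2 (-1.14) or BA 1 (-0.81) and Thbs2 without CSA 2 (-1.89) or BA 2 (-1.79). Eln, elastin, stood at 467, 312, 929 and 583 and was not called (-1.05 ± 0.27). The 4 higher in CSA were Igfbp2, Vtn, Matn2 and Ctgf. Vtn, vitronectin, a gene of pericytes and fibroblasts, stood at 247, 243, 7.31 and 17.5 (4.17 ± 0.33), and the mixed barcodes held 62.9% and 22.9% of its UMIs in CSA 1 and CSA 2. Without them the log2 difference was 3.39 for Vtn, 3.57 for Ctgf, -2.71 for Thbs2 and -4.28 for Tnxb, against 4.17, 2.90, -1.90 and -3.56 with them. Ctgf, a matricellular growth factor, stood at 379, 476, 29.8 and 76.9 (2.90 ± 0.35). Without the rule on Kcnj8 none of Vtn (0.60), Ctgf (0.83) and Matn2 (-0.88, the opposite direction) was called.

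Of 42 collagen genes 18 were tested, 2 were higher in CSA and 6 in BA, with a median of -0.49, beside 1.65% and 3.99% of all genes. Col6a1 stood at 7.87, 4.48, 111 and 132 (-4.43 ± 0.33, adjusted p = 1.1e-07), and Col6a2, Col6a3, Col14a1, Col16a1 and Col1a1 were higher in BA as well, the last of which was not called by DESeq2 (-2.26). With the mixed barcodes left out the log2 difference of Col6a1 was -5.28. Col1a1 had 65 and 18 UMIs in CSA VSMCs, of which 0 and 3 remained without those barcodes, against 177 and 202 in BA. Mesenchymal cells of BA held 395 and 656 of Col6a1 and 4070 and 3650 of Col1a1. The 10 mesenchymal markers summed to 787, 546, 527 and 897 CPM in VSMCs, led by Col1a2, and to 21, 19, 13.5 and 153 in lymphocytes, and their part in these differences was not tested. Col13a1, a collagen of cell membranes, stood at 38.7, 17.5, 2.09 and 1.71 (3.71 ± 0.51), and Col8a1, higher in CSA, lost its call without the rule on Kcnj8 (1.18). Nid1, nidogen of the basement membrane, stood at 123, 71.2, 48.0 and 38.0, and its difference of 1.07 ± 0.27 was under the threshold.

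Secreted factors, their receptors and immediate-early genes were compared next. Of 101 secreted factors 36 were tested, 2 were higher in CSA and 8 in BA, beside 1.65% and 3.99% of all genes. Il6, Cxcl1, Angptl4, Vegfa, Cxcl12, Csf1 and Tgfb1 were among the 8. Cxcl1, a chemokine for neutrophils, stood at 0.716, 8.06, 94.5 and 140 (-4.58 ± 0.45), and Vegfa, the endothelial growth factor, at 15.7, 9.86, 138 and 99.2 (-3.32 ± 0.30). Cxcl1 was found in 20 of 148 and 46 of 225 BA VSMCs and Vegfa in 104 and 122. The 5% of BA cells with the most Cxcl1 held 80.7% and 74.0% of its UMIs. Cxcl12 had a log2 difference of -2.66, and of -3.45 without the mixed barcodes. Csf1 was not called without BA 1 (-1.10) and Tgfb1 not without CSA 1 (-1.04) or BA 2 (-1.22). Wnt5b stood at 125, 124, 15.7 and 12.4 (3.07 ± 0.27) and Ptn, pleiotrophin, at 361, 139, 2.61 and 26.9. The mixed barcodes held 95.8% and 80.6% of the UMIs of Ptn in CSA 1 and CSA 2, and its log2 difference was 3.88 with them and 1.87 without. It was not called by DESeq2 (3.94). Of 59 growth factor receptors 36 were tested and 5 were called, all higher in BA (Ntrk2, Nrp1, Egfr, Tnfrsf12a and Lifr). Among all genes tested 1.65% were higher in CSA and 3.99% in BA. Ntrk2, the receptor of brain-derived neurotrophic factor, stood at 2.86, 7.62, 195 and 252 (-5.36 ± 0.37, adjusted p = 5.85e-08). Tnfrsf12a was not called without CSA 1 (-1.26), Lifr not without CSA 2 (-1.06) or BA 1 (-1.01), and Egfr not without CSA 1 (-1.40), CSA 2 (-2.03) or BA 2 (-1.55).

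Of 44 immediate-early genes 40 were tested, 1 was higher in CSA and 13 in BA, with a median of -0.77. The shares of all genes, here and for the heat shock and interferon-induced genes that follow, were 1.65% higher in CSA and 3.99% higher in BA. Egr3 stood at 2.15, 1.79, 39.7 and 38.9 (-4.37 ± 0.42) and Klf10 at 0, 2.24, 28.2 and 31.6 (-4.46 ± 0.55). Of those called, 2 of higher level were picked after their values were seen. Gadd45b, a stress-induced gene, stood at 278, 597, 1960 and 2110 (-2.27 ± 0.33), and Cebpb, a factor of inflammatory responses, at 829, 1920, 3160 and 3670 (-1.36 ± 0.35), with its call lost without CSA 1 (-0.85) or BA 2 (-1.20) and by DESeq2 (-1.37). Fos stood at 8020, 8920, 5750 and 5260 (0.55 ± 0.28) and Egr1 at 1380, 1680, 2210 and 1500 (-0.34 ± 0.27), neither of them called. Dusp1, a phosphatase of the stress kinases, stood at 1670, 1690, 583 and 627 (1.39 ± 0.25), and its call was lost without CSA 2 (1.29) or BA 1 (1.3). Of 20 heat shock genes 5 were called, all higher in BA (Bag3, Hspb8, Hspa8, Dnaja1 and Dnajb1), of which Hspa8 was not called without CSA 1 (-1.28), Dnajb1 without CSA 1 (-1.14) or BA 2 (-0.63), Dnaja1 with a limit of 20% mitochondrial UMIs (-1.25) and Hspb8 with thinned cells (-0.92). Of 39 interferon-induced genes 19 were tested, 2 were higher in CSA (Ifitm1 and Bst2) and 3 in BA (Irf1, Igtp and Irgm1). Bst2 was not called without BA 1 (1.27), Igtp without CSA 2 (-1.54) or by DESeq2 (-2.04), and Ifitm1 not by DESeq2 (3.29). Irf1, an interferon response factor, stood at 11.5, 68.6, 471 and 418 (-3.44 ± 0.46). Mt1, a metallothionein, stood at 331, 561, 3750 and 2480 (-2.86 ± 0.33), and BA pericytes held 2340 and 1660 of it. Handling differed between the preparations, minced tissue against a coverslip, and its part in these genes was not tested.

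Hbb-bs and Ttr, which VSMCs are not known for, were called higher in BA. Hbb-bs, a hemoglobin gene, stood at 1.43, 0.896, 8.35 and 28.2 in VSMCs and 0, 3.8, 21.2 and 42.1 in lymphocytes. Ttr, transthyretin of the choroid plexus, stood at 6.44, 22.9, 98.7 and 146 in VSMCs and 15.8, 22.8, 141 and 60.7 in lymphocytes. In lymphocytes both BA libraries also lay above both CSA libraries, and the part of free RNA in these calls was not tested.

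VSMCs were then set beside 301 pericytes of the same libraries, chosen by at least 3 of the 5 genes Abcc9, Higd1b, Ndufa4l2, Cox4i2 and Art3 (83, 134, 18 and 66 cells in CSA 1, CSA 2, BA 1 and BA 2). Since both groups were picked by marker genes of this very contrast, the values describe them and no test is claimed. With the same thresholds 1132 of 8151 genes were apart (13.9%), 596 higher in VSMCs (7.31%) and 536 higher in pericytes (6.58%). Of the 50 contractile genes not used by the rules 38 were higher in VSMCs and 1, Svil, in pericytes, with a median log2 difference of 2.83. Svil was not apart by these thresholds once pericytes with mesenchymal markers were left out (-1.27). Acta2 stood at 433, 684, 546 and 989 in pericytes and Myh11 at 97.8, 78.9, 386 and 228. Myocd stood at 2.00, 2.59, 0 and 10.6 in pericytes.

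Several channels were found in few or no pericytes. Kcnma1, the calcium-activated potassium channel, had no UMI in pericytes of any library and was at least 32.4-fold higher in VSMCs (a floor of 3 UMIs over the group). Its regulatory subunit Kcnmb1 stood at 147, 88.3, 82.5 and 47.4 in VSMCs and 12, 9.05, 0 and 4.25 in pericytes. P2rx1 had 1 UMI over all pericytes, a ratio of 94.7 (16.9 to 3750). Ryr2, the calcium release channel, stood at 77.3, 59.6, 62.6 and 56.4 in VSMCs and at 0 to 2.13 in pericytes. In all, 18 of 52 genes of channels and calcium handling were higher in VSMCs and 6 in pericytes, against 7.31% and 6.58% of all genes. Further genes without a UMI in pericytes were Dtna, dystrobrevin (at least 42.4-fold), the antisense transcript Atcayos (38.7), the sodium channel subunit Scn4b (34.9), the muscle phosphoglycerate mutase Pgam2 (25.1), the integrin chain Itga3 (24.0) and Sgca, alpha-sarcoglycan (22.0). Sh3bgr had 1 pericyte UMI, a ratio of 277 (49.6 to 10900). The counting did not state strand, so reads of Atcayos and of its sense partner cannot be told apart.

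Other genes were higher in pericytes. Ccl11, eotaxin, stood at 31.9, 46.5, 958 and 934 in pericytes and had no UMI in VSMCs, at least 881-fold lower. Atp13a5, a transporter of brain pericytes, stood at 194, 253, 26.6 and 2.13 and had none either, at least 413-fold lower. Both limits pool all libraries used. The pericyte levels behind them were higher in BA for Ccl11 and in CSA for Atp13a5, so a limit for a single preparation would differ. Ccl19 stood at 910, 601, 686 and 211 in pericytes and 10.7, 3.14, 0.522 and 0.855 in VSMCs. Eps8, Colec11, Pla1a, Abca8a and Mrap were at most 1.79 CPM in any VSMC library. Of 26 interferon-induced genes 17 were higher in pericytes and none in VSMCs, with a median of -1.54, where 6.58% and 7.31% of all genes were. Ifitm3 stood at 423, 433, 552 and 756 in VSMCs and 2330, 2020, 3610 and 2390 in pericytes. Among receptors, 6 of 21 were higher in VSMCs, among them Ramp1 of the CGRP receptor (213, 246, 364 and 395 against 3.99, 16.8, 39.9 and 36.2), and 7 in pericytes, among them the angiotensin receptor Agtr1a (1.43, 0, 1.04 and 4.70 against 49.9, 56.9, 6.66 and 48.9). Against the same shares of all genes, 15 of 40 immediate-early genes were higher in VSMCs and 2 in pericytes, with Klf2, a flow-responsive factor, at 2540, 4480, 1910 and 3130 against 89.8, 154, 266 and 598. Of the 301 pericytes 85 also met the mesenchymal rule, and without these cells 653 genes were higher in VSMCs and 484 in pericytes, an alternative chosen after seeing the data.

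Whether a gene differed between preparations by another amount in VSMCs than in pericytes was tested as an interaction in the same fit. It was called for 144 of 8151 genes (1.77%), 91 with the difference shifted towards CSA in VSMCs (1.12%) and 53 towards BA (0.65%). BA 1 contributed only 18 pericytes. Of the pericytes, 18 of 83 in CSA 1, 29 of 134 in CSA 2, 10 of 18 in BA 1 and 28 of 66 in BA 2 also met the mesenchymal rule, and without these cells 162 genes were called, of which 102 were among the 144. Of the 137 genes higher in CSA VSMCs 107 could be tested and 13 had a called interaction of the same sign, and of the 331 higher in BA 281 could be tested, with 25 of the same and 9 of the opposite sign. For the others a difference between the cell types was not shown, which does not show that they were alike. Without CSA 1 the counts were 60 and 22 and without CSA 2 the second was 34.

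Rgs17, Ntrk2 and Mnd1 differed between the preparations by another amount in VSMCs than in pericytes. Rgs17, higher in CSA VSMCs, stood at 9.98, 10.3, 46.6 and 17.0 in pericytes, where BA was the higher, an interaction of 6.21 ± 0.70 on the log2 scale. Pericytes of BA 1 and BA 2 summed to only 143891 and 455454 UMIs over the genes fitted. The pericyte levels of Rgs17 therefore rest on few UMIs. Ntrk2, higher in BA VSMCs, stood at 146, 140, 146 and 183 in pericytes (-4.94 ± 0.37), and Mnd1, a meiotic recombination gene, at 329, 261, 146 and 185 in pericytes and 17.2, 22.9, 120 and 192 in VSMCs (-3.63 ± 0.30), so that CSA was the higher in pericytes and BA in VSMCs. Tcf15 had 0, 3.88, 0 and 2.13 in pericytes, and its interaction of -7.59 was not called without CSA 2 (-3.66), without BA 2 (-11.45) or with thinned cells (-10.93). Of 40 immediate-early genes 10 had a called interaction, all of them towards CSA, with a median of 1.00 (-0.02 over all genes). Egr1 stood at 325, 548, 2350 and 1720 in pericytes against even levels in VSMCs (2.10 ± 0.21), and Nr4a1 at 81.9, 95.7, 852 and 561 (2.19 ± 0.23). Of the contractile genes 6 of 50 were called towards CSA (Csrp2, Pdlim3, Vim, Myh11, Sncg and Palld), and over all genes 1.12% were called towards CSA and 0.65% towards BA. VSMCs were chosen by at least 5 markers of this kind and pericytes had to carry fewer than 5 of them. The choice of cells thus constrained contractile levels in both groups, and its part in these calls was not tested. Csrp2, a LIM protein, stood at 521, 686, 313 and 356 in VSMCs and 18.0, 16.8, 106 and 128 in pericytes (3.77 ± 0.32), and the interaction was not called for Pdlim3 without BA 2 (1.5), for Palld without CSA 1 (1.57) or BA 1 (1.24), or for Sncg without CSA 1 (1.47) or BA 2 (1.72). Mgp, matrix Gla protein, stood at 1730, 2690, 14000 and 25100 in pericytes and 1300, 2770, 2200 and 4450 in VSMCs (2.52 ± 0.21).

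**Figure D4:**
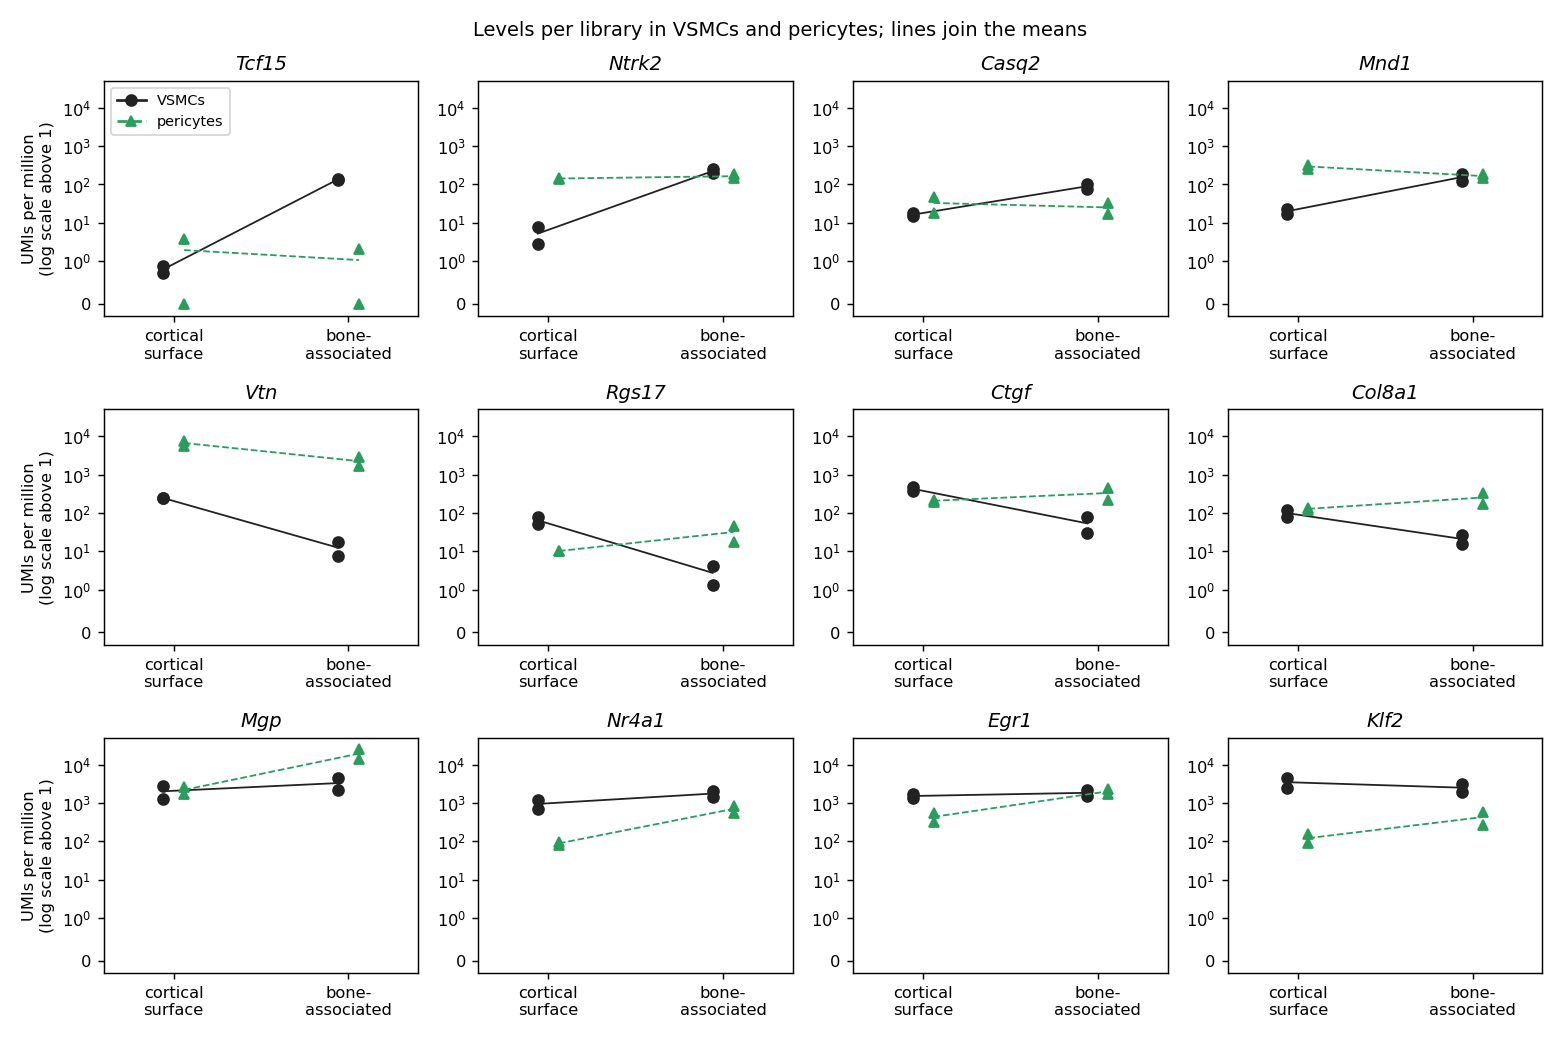
Levels (CPM, log axis, linear from 0 to 1) of 12 genes with a called interaction, in VSMCs and pericytes of the same libraries, each point a library and each line joining the preparation means. The interaction of Casq2 was not called without CSA 2 (-2.1). Ntrk2 differs between CSA and BA in VSMCs but lies between 140 and 183 in pericytes, and Tcf15 is at or below 3.88 in pericytes.

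VSMCs of a library also differed among themselves. With each cell thinned to 3000 UMIs, the variance over the mean of 636 genes was compared in each library, where 1 is the value of counting noise and the median over genes of the lowest library ratio was 1.01. Ranked by their lowest ratio over the 4 libraries, the first 12 genes were Malat1, Rgs5, Acta2, Mgp, Rrad, Klf2, Atf3, Mt1, Actb, Jun, Rasl11a and Fos. Rgs5, a regulator of G protein signalling that marks pericytes and some VSMCs, had ratios of 32.7, 28.2, 41.7 and 33.1. It was seen in 72.6%, 63.1%, 44.6% and 51.6% of thinned cells, and the 10% of cells with the most Rgs5 held 58.3%, 61.2%, 61.2% and 53.0% of its UMIs. Acta2 ran from 35 to 84 UMIs between the lowest and the highest 10% of cells in CSA 1, 28.8 to 92.4 in CSA 2, 20 to 67 in BA 1 and 15 to 64 in BA 2. Rgs5 was thus concentrated in a minority of cells and Acta2 graded over nearly all. Much of the Rgs5 lay in VSMCs near the border of the rule, since those with 5, 6 and 7 markers held 10407, 7436 and 932 CPM of it in CSA and 10375, 4732 and 478 in BA.

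Across cells, Rgs5 and Acta2 ran in opposite directions in every library, with r of -0.483, -0.655, -0.570 and -0.471 over 106, 179, 148 and 225 thinned cells. Rgs5 ran with Mgp (0.558, 0.318, 0.480 and 0.496), Notch3 (0.399, 0.481, 0.328 and 0.273) and Pdgfrb, the receptor of mural cells (0.364, 0.457, 0.433 and 0.262), and against Cnn1 (-0.445, -0.486, -0.483 and -0.386), which was among the genes of the rule. Acta2 ran with Myh11 (0.535, 0.480, 0.296 and 0.562). Cells of a library share their depth after thinning and their preparation, and these values are descriptions without a test. Klf2 also ran against Rgs5 in all 4 libraries (-0.192, -0.305, -0.467 and -0.518). For Fos r was -0.052, 0.014, 0.123 and 0.064 to Rgs5 and 0.256, 0.015, -0.038 and 0.067 to Acta2, with no common sign over the libraries.

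**Figure D5:**
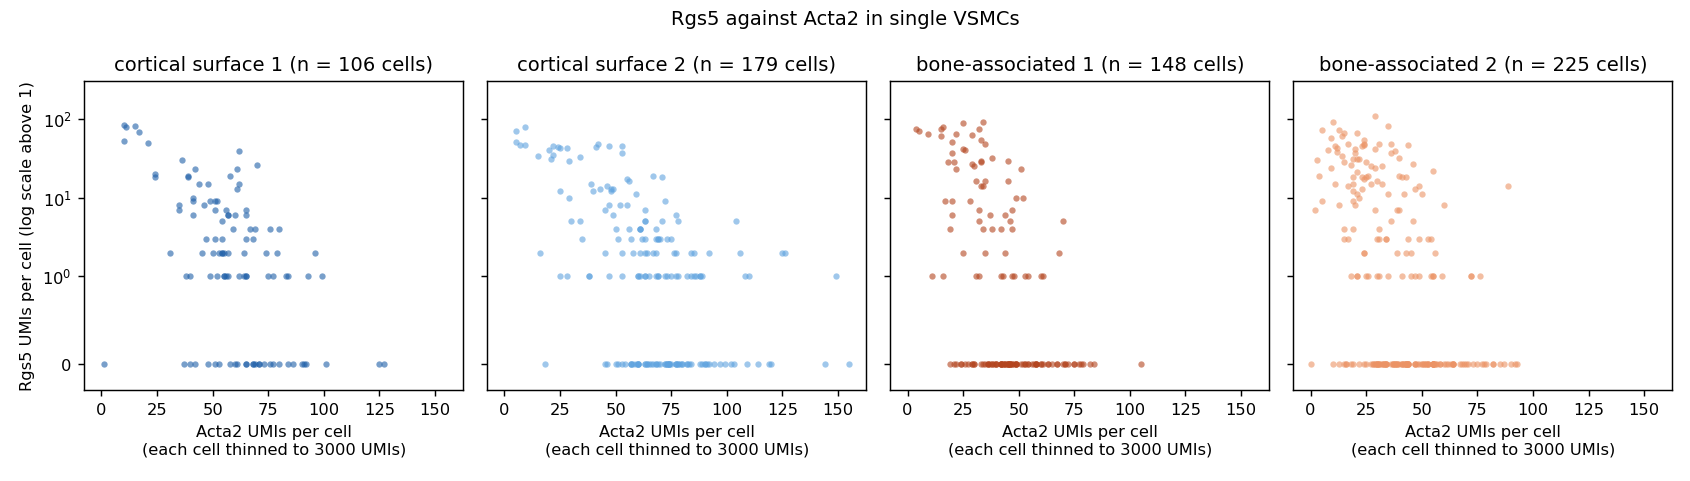
UMIs of Rgs5 (vertical, log axis, linear from 0 to 1) against UMIs of Acta2 (horizontal) in single VSMCs thinned to 3000 UMIs, a panel for each library. The clouds fall from upper left to lower right, and r is -0.483, -0.655, -0.570 and -0.471.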

How the data were processed

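Barcode by gene matrices of 6 10x Genomics libraries were used. The authors aligned reads to mm10 and counted UMIs with Cell Ranger, and the deposited counts are whole UMIs per gene, not normalised (version 6.1.2 in the matrix header, 3 in the submitters' processing notes). Whether the counting used strand was not given in the sources used here. Barcodes were filtered, VSMCs, pericytes (3 of 5 markers), mesenchymal cells (4 of 8) and lymphocytes (2 of 8) were chosen by marker genes, and UMIs were summed per library. The members and gene lists were chosen with earlier results of these data known. Genes detected in more than 10% of cells in one of the groups compared were fitted by edgeR 4.0.16 (quasi-likelihood, TMM, Benjamini-Hochberg) in R 4.3.3, and genes of the rules were not called. The genes named first were the 10 largest called differences in each direction (8 against pericytes, 6 for the interaction) with at least 50 UMIs and no overlap between libraries, and the others came from the lists. DESeq2 1.42.0, other normalisations, filters and marker numbers, thinning, a replicate block and leaving out each library were alternatives, of which leaving out barcodes with all 8 mesenchymal markers, leaving out pericytes with mesenchymal markers and thinning for the interaction were chosen after seeing the data. On simulated counts all 100 of 100 changed genes were recovered at each fold size for the preparation comparison, with 1 false call among 8325 genes. For the interaction 75 and 88 of 100 were recovered, with 3 false calls among 8177 genes at each fold size. The changed genes were drawn only from genes of higher counts. The simulated spread between libraries followed the trend with level and not the spread of each gene. Recovery of genes with few UMIs was therefore not tested, and real genes that vary more may give more false calls. Ratios of genes with few UMIs carry exact counting intervals, which cover counting error only. Sequences were read from RefSeq tables of GRCm38.p6. Results of some genes are not reported here.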

Additional observations from a re-analysis of the deposited data

Results flagged for a closer look

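The results below were picked out because the difference between CSA and BA in VSMCs was not the same size as in pericytes of the same libraries, by the interaction test of edgeR. Values are log2 differences of the 2 preparation differences. Towards CSA in VSMCs they were 7.46 for Slc16a7, 6.75 for Egr2, 6.68 for Cyp1b1, 6.21 for Rgs17 and 5.95 for Apod. Towards BA in VSMCs they were -7.59 for Tcf15, -4.94 for Ntrk2, -4.5 for Bcl3, -3.8 for Klhl29, -3.63 for Mnd1 and -3.6 for Retreg1. Egr2 was itself higher in BA VSMCs (log2 difference -2.39), so its value reflects a larger BA excess in pericytes. Of the Apod UMIs in CSA VSMCs, the mixed barcodes held 93.8% in CSA 1 and 85.4% in CSA 2. The preparation difference of Apod in VSMCs was 5.28 with the mixed barcodes and 2.56 without them. BA 1 held 18 pericytes. Rgs17, Ntrk2 and Mnd1 were called under every alternative that gave a value. Slc16a7 was not called without CSA 1 (7.43), CSA 2 (7.53) or BA 1 (7.22), Egr2 without CSA 2 (5.69), Bcl3 without CSA 2 (-4.94), Klhl29 without CSA 1 (-3.52) or BA 2 (-3.58), Retreg1 without CSA 1 (-3.51), Apod without BA 2 (5.53) and Tcf15 without CSA 2 (-3.66) or BA 2 (-11.45). Cyp1b1 was not called with the mixed barcodes left out (3.66). With pericytes that met the mesenchymal rule left out, Egr2 (6.17) and Bcl3 (-3.81) were not called. DESeq2 did not call Slc16a7 (6.3), Egr2 (5.36), Bcl3 (-4.55), Klhl29 (-3.82) or Retreg1 (-3.81), and with thinned cells Klhl29 (-3.38) and Tcf15 (-10.93) were not called.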

How the results depend on the processing

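The preparation comparison tested 8305 genes as reported, 15596 with no detection filter, 5150 with genes in over 25% of cells and 4136 with thinned cells, and DESeq2 called 366 of the 8305. All 468 genes were also called with no filter, and 262 of the 263 called in over 25% of cells were among them. Of the 468, 379 were also called without the rule on Kcnj8, 374 with at least 4 markers and 212 with thinned cells. Genes higher in CSA numbered 225 with no detection filter, 72 with genes in over 25% of cells and 67 with cells thinned to 3000 UMIs, and genes higher in BA 512, 191 and 178. Leaving out 1 library gave 129 to 161 and 301 to 373. Against pericytes it gave 549 to 637 genes higher in VSMCs and 530 to 572 higher in pericytes, and for the interaction 60 to 122 towards CSA and 22 to 62 towards BA, for which DESeq2 gave 52 and 16. The share of VSMCs was 22.8% in CSA 2 and 14.1% in BA 2 with up to 20% mitochondrial UMIs, 18.5% in BA 1 and 12.6% in BA 2 without the rule on Kcnj8, and 7.63% in BA 2 with at least 6 markers. Without the rule on Kcnj8 the differences of Actg2 (-0.63) and Matn2 (-0.88) had the opposite direction. The causes were not tested. CSA and BA libraries of the same number share only that replicate number, and their deviations from the preparation means correlated at r = 0.372 over 8325 genes. With the replicate block 499 genes were called against 468. CSA libraries 3 and 4 held 2 and 9 VSMCs, under the minimum of 10, so the alternative that includes them was not run. With 2 pooled libraries a preparation, precision is limited by the number of pools, and genes of a few UMIs could not be called.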
